A study of Mus musculus with 16 samples.

Results

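The translation initiation and elongation factors of mouse lung tumors were described across 2 labelled groups, 9 Max null and 7 Max wild-type tumors. They were taken as every row of the count files whose symbol starts with Eif1, Eif2, Eif3, Eif5, Eif6 or Eef1, leaving out the eIF2 kinases (Eif2ak) and pseudogenes (-ps). The rule finds 44 of 23284 gene symbols and uses no measured value. Of these 44, 43 had reads in at least 1 tumor and 42 passed the filter on low counts and were tested.

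The null tumors are lung tumors from RPMax-/- mice (genotype Max -/-), and the wild-type tumors are lung tumors from RPMaxWT mice (genotype wild type). Both groups are of mixed 129/SvJ and C57BL/6 strain and carry the RP background, which the labels do not spell out and which in published work on small cell lung cancer in mice stands for deletion of Rb1 and Trp53. In both groups genes were deleted by instilling Ad.CMV.Cre, an adenovirus with Cre under a cytomegalovirus promoter that is active in many cell types, into the trachea, so Cre was not limited to one cell of origin. The labels give no age, and do not say whether tumors came from separate mice, so a p-value here speaks only of the spread among these libraries, which may be technical. Bulk RNA was counted per gene, so fewer cells of a type and less RNA per cell cannot be told apart.

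Initiation factors bring the small ribosomal subunit, the initiator tRNA and the mRNA together and pick the start codon. eIF1, eIF1A and eIF5 act at that choice, eIF2 carries the initiator tRNA, eIF2B reloads eIF2 with GTP, eIF3 is the large scaffold on the small subunit, and eIF5B joins the large subunit. In elongation eEF1A delivers each aminoacyl-tRNA, eEF1B reloads eEF1A, and eIF5A helps the ribosome through difficult stretches of peptide. MAX is the partner protein through which MYC family proteins bind DNA at the E-box CACGTG, and genes for ribosomes and translation factors are among the best known MYC targets.

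The count tables held 8.66 to 15.1 M reads in genes per null tumor and 9.15 to 13.2 M per wild-type tumor, where M is 1000000. Max itself, counted over the whole gene, was at 64.2 to 83.5 counts per M reads (CPM) in null tumors and 52.4 to 75.9 CPM in wild-type tumors (log2 difference 0.18 ± 0.11 (SE), edgeR adjusted p = 0.281). The labels do not say which part of Max was deleted, so this count does not check the genotype, and each direction given here is between groups as labelled. Entries for reads that aligned to more than 1 place took 9.17% to 11.8% of all entries counted in null tumors and 12.3% to 22.2% in wild-type tumors. That value is called the share of multiply aligned reads below. These ranges do not overlap, so the share and the genotype cannot be told apart. The 6 neuroendocrine markers used (Calca, Chga, Syp, Insm1, Ncam1, Uchl1) all had reads, and their summed level was 1784 to 4870 CPM in null tumors and 2354 to 25457 CPM in wild-type tumors. Calca made up 23460 CPM of the highest sum, in wild-type tumor 2. None of the 6 passed in edgeR or limma-voom, 2 had an unadjusted p under 0.05 in edgeR, and DESeq2 called Syp higher and Calca lower. Their log2 differences were -1.89 in Calca, -0.20 in Uchl1, -0.16 in Ncam1, 0.11 in Insm1, 0.18 in Chga and 0.74 in Syp. The 5 macrophage markers in the files summed to 66.1 to 153 CPM in null tumors and 107 to 229 CPM in wild-type tumors, and 2 of the 5, Cd68 and C1qa, passed as lower (40.0%, against 16% of all genes). Cd68 differed by -0.83 and C1qa by -0.95. Csf1r was at 0.35, Emr1 at -0.03 and Marco at -1.46, with edgeR adjusted p of 0.119 or more. Without wild-type tumor 7, 0 of the 5 passed in edgeR, with 3 at an unadjusted p under 0.05. Of the alveolar type 2 markers 1 of 5, Abca3, passed as higher (log2 difference 1.25, edgeR adjusted p = 0.00347). The others were at 0.64 in Lamp3, 0.47 in Sftpb, -0.07 in Sftpa1 and -0.09 in Sftpc, with adjusted p of 0.537 or more. The 5 summed to 574 to 2546 CPM in null tumors and 129 to 1836 CPM in wild-type tumors. The 3 club markers (Scgb1a1 0.49, Scgb3a2 0.61, Cyp2f2 1.81) did not pass in edgeR, and DESeq2 called Cyp2f2 higher. They summed to 361 to 10118 CPM in null tumors and 164 to 4140.5 CPM in wild-type tumors. Of 5 fibroblast markers 0 passed in edgeR, and Col1a1 (1.47) passed as higher in DESeq2 and limma-voom. Col3a1, Col1a2, Pdgfra and Dcn were at 0.71, 0.63, 0.06 and -0.90. No ciliated, endothelial, T cell, B cell, neutrophil or erythroid marker passed in edgeR, DESeq2 or limma-voom. The part of any of these cell types in the results was not tested.

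Of the 42 factors tested, 8 passed at an adjusted p under 0.05 (edgeR's quasi-likelihood F test, Benjamini-Hochberg over all 14825 genes). That is 19.0% of the factors, where 16% of all genes passed, so the share is near the background. The 3 that rose in null tumors (background 7.4%) were Eif2c2, Eif2c3 and Eif5a2, and the 5 that fell (background 8.64%) were Eif2s2, Eif1, Eif1b, Eif3k and Eif2b4. At an unadjusted p under 0.05 there were 18. The log2 difference (null minus wild-type) was below 0 for 33 of the 42 and above 0 for 9. Its median was -0.28, against -0.03 over all genes tested. The shares of all genes at an unadjusted p under 0.05 and below 0 are not given here. The counts of 18 and 33 are therefore not read as a result about the factors. In none of the 42 were the groups' CPM ranges fully apart, as they were in 232 genes, or 1.56% of all tested. Eif2c1 to Eif2c4 are older symbols of Argonaute genes, which bind small regulatory RNAs and are not initiation factors. Without them 6 of 38 passed, or 15.8%, 1 higher and 5 lower, with a median of -0.34.

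**Figure D1:**
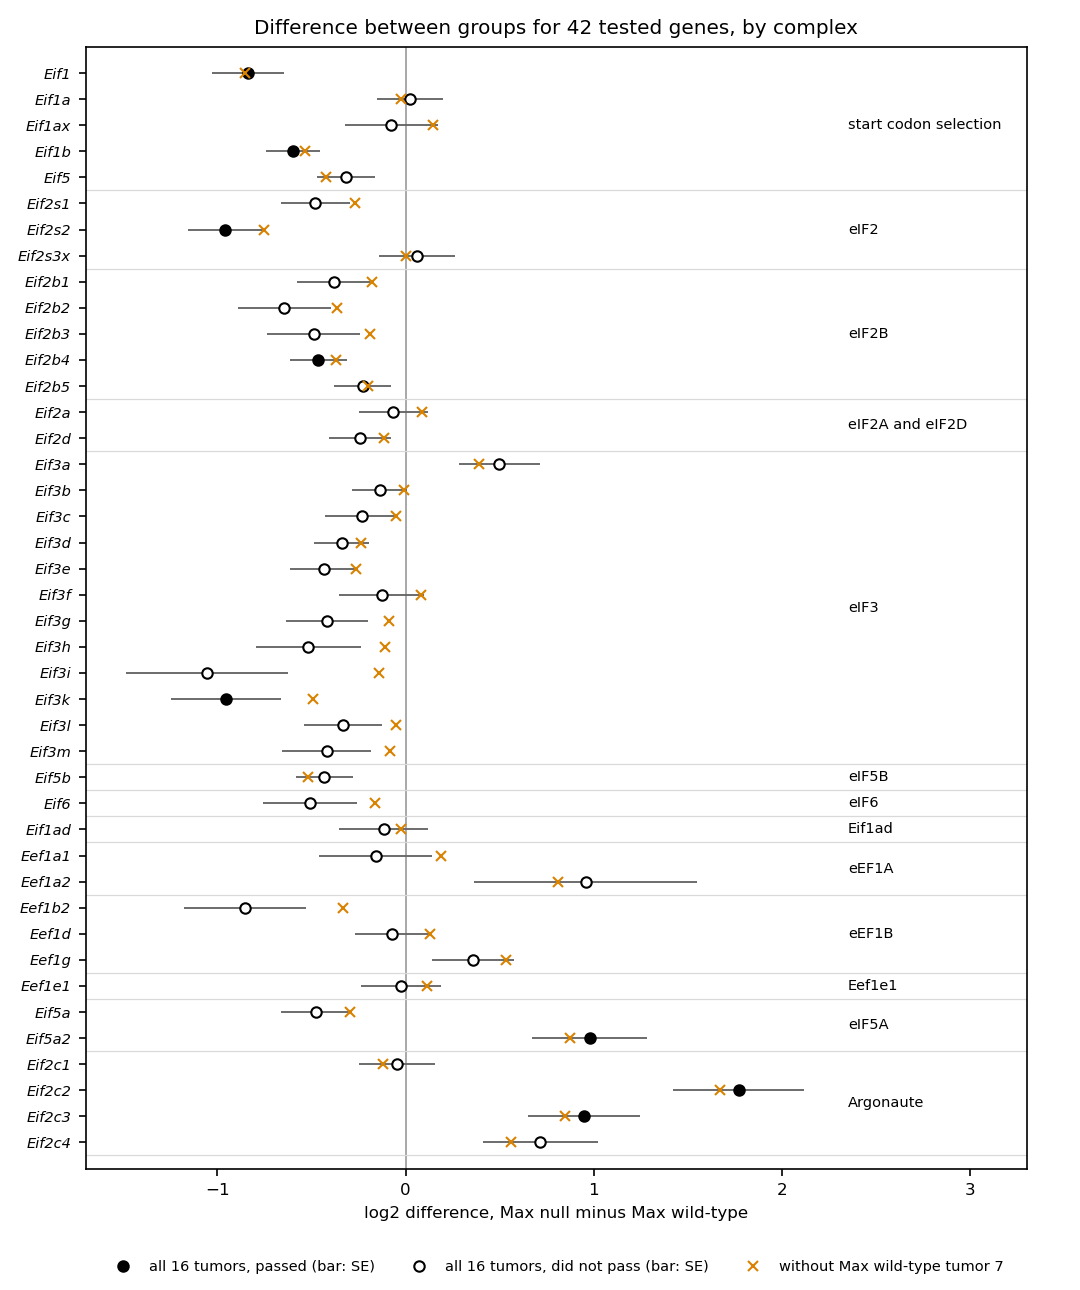
Log2 difference (Max null minus Max wild-type, with its standard error) of each of the 42 factors tested, grouped by complex, with those that passed the test filled in and the value without wild-type tumor 7 as a cross. 33 of the 42 points lie below 0, and the Argonautes Eif2c2 and Eif2c3 and the eIF5A gene Eif5a2 are the ones above it that passed.

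Without wild-type tumor 7, the library that stands apart most, 6 factors passed (1 higher, 5 lower, against a background of 10.4%): Eif2c2 was higher, and Eif1, Eif1b, Eif2s2, Eif5 and Eif5b were lower. The median of the 42 was then -0.10, against -0.03 over all genes tested. Without wild-type tumors 2, 4 and 7, which had the highest shares of multiply aligned reads, 0 of 43 passed in edgeR, 9 had an unadjusted p under 0.05 (no other tool was run on these samples), and the background was 1.68%. The median was then -0.01. The gene tested there beyond the 42 was the Y-linked Eif2s3y (log2 difference 5.83, edgeR adjusted p = 0.227). Of the wild-type tumors only tumor 2, left out in that fit, was high in Eif2s3y. With the share of multiply aligned reads as a covariate, 0 of 42 passed in edgeR and 5 had an unadjusted p under 0.05, in a fit where that share and the genotype cannot be told apart.

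Of the 8 factors that passed, 3 hold the E-box CACGTG in the bases before their start site. They are shown because MAX is the deleted gene and binds that sequence. The 250 bases before the annotated start are from RefSeq (GRCm38.p6) and are given 5′ to 3′ on the gene's own strand, with CACGTG in capitals. Eif5a2 is at chr3:28781027-28781276 (plus strand), Eif3k at chr7:28981889-28982138 (minus strand) and Eif1b at chr9:120492356-120492605 (plus strand).
Eif5a2: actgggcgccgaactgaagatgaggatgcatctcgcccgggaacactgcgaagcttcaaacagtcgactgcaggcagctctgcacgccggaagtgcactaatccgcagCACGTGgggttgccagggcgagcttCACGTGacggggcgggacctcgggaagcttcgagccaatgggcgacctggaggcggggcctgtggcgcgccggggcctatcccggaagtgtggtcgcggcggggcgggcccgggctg
Eif3k: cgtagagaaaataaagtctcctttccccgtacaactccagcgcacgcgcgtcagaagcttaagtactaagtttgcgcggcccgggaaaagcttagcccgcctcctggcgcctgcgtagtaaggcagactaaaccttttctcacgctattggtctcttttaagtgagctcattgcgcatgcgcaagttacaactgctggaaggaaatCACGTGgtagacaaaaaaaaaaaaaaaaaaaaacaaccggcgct
Eif1b: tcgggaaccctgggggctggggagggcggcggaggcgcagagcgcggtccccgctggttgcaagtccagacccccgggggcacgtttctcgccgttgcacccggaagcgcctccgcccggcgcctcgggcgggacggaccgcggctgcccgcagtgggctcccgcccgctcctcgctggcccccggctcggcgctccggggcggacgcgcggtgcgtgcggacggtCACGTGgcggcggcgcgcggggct

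The motif begins 142 and 117 bases before the start in Eif5a2, 44 before it in Eif3k and 24 before it in Eif1b. Eif5a2 was higher in null tumors, while Eif3k and Eif1b were lower, so the genes with the same letters differed in direction. A window of 300 bases (250 before the start and 50 after it) was available for 35 factors. CACGTG, which reads the same on both strands, was in 6 of the 35 (17.1%: Eif1b, Eif3a, Eif3f, Eif3k, Eif5a and Eif5a2), in 11.4% of the 11631 tested genes with a window and in 8.09% of all 27025 genes with one. A start at C followed by 4 pyrimidines, the opening of a terminal oligopyrimidine tract, was found in 2 of the 35 (Eif2s3x and Eif3f), or 5.71%, and in 2.99% of the tested genes. Only the bases at the annotated start itself were read, so a tract at a start a few bases away would be missed. These matches are letters in a window and say nothing about binding.

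Among the start codon factors, Eif1 and Eif1b fell. Eif1 encodes the factor that keeps the scanning ribosome open until it meets a start codon, and Eif1b is its paralog. Eif1 had 381, 316, 397, 373, 415, 336, 475, 454 and 446 CPM in null tumors 1 to 9, against 426, 1160, 694, 926, 537, 556 and 695 CPM in wild-type tumors 1 to 7. Only wild-type tumor 1 lay within the null range, and 6 of 9 null tumors lay below every wild-type tumor. Eif1 averaged 399 ± 53.6 CPM in null tumors (SD, n = 9) and 714 ± 253 CPM in wild-type tumors (n = 7), a log2 difference of -0.84 ± 0.19 (SE, edgeR adjusted p = 0.0105). Its transcript shares 31.6% of its 50-base words with 18 other genes, so its count is uncertain.

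Eif1b had 75.0, 97.6, 97.7, 78.6, 93.3, 71.7, 74.4, 80.1 and 56.3 CPM in null tumors, against 119, 115, 122, 144, 102, 92.8 and 157 CPM in wild-type tumors. As with Eif1, 6 of 9 null tumors were below every wild-type tumor, and all 9 were below the wild-type median. The log2 difference was -0.60 ± 0.14 (edgeR adjusted p = 0.0128). Eif1b shares 0.81% of its 50-base words with another gene. Both genes passed in each of the 16 fits that leave out 1 tumor. Without wild-type tumors 2, 4 and 7 their differences were -0.47 (adjusted p = 0.108) and -0.44 (adjusted p = 0.132) by edgeR.

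The rest of the start codon set did not pass. Eif5, which makes eIF2 hydrolyse its GTP at the start codon, had 232 CPM at the lowest, 275 at the median and 328 at the highest null tumor, against 196, 356 and 443 CPM in wild-type tumors. Its log2 difference was -0.32 ± 0.15 (edgeR adjusted p = 0.16), and it passed without wild-type tumor 7, its lowest value of all 16, at -0.42 (adjusted p = 0.0362). Eif1a and Eif1ax, the autosomal and X-linked genes for eIF1A, had differences of 0.02 and -0.08. The 5 genes summed to 837 to 1042 CPM in null tumors and 1079 to 1899 CPM in wild-type tumors. The summed ranges do not overlap, while those of the 5 genes do, as do the summed ranges of every other complex. Eif1, which passed as lower by itself, had the highest mean CPM of the 5 in both groups. No background for sums of genes was computed, so the sum is not read as a result about the set. Eif1ad, named for an eIF1A-like domain, differed by -0.12.

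**Figure D2:**
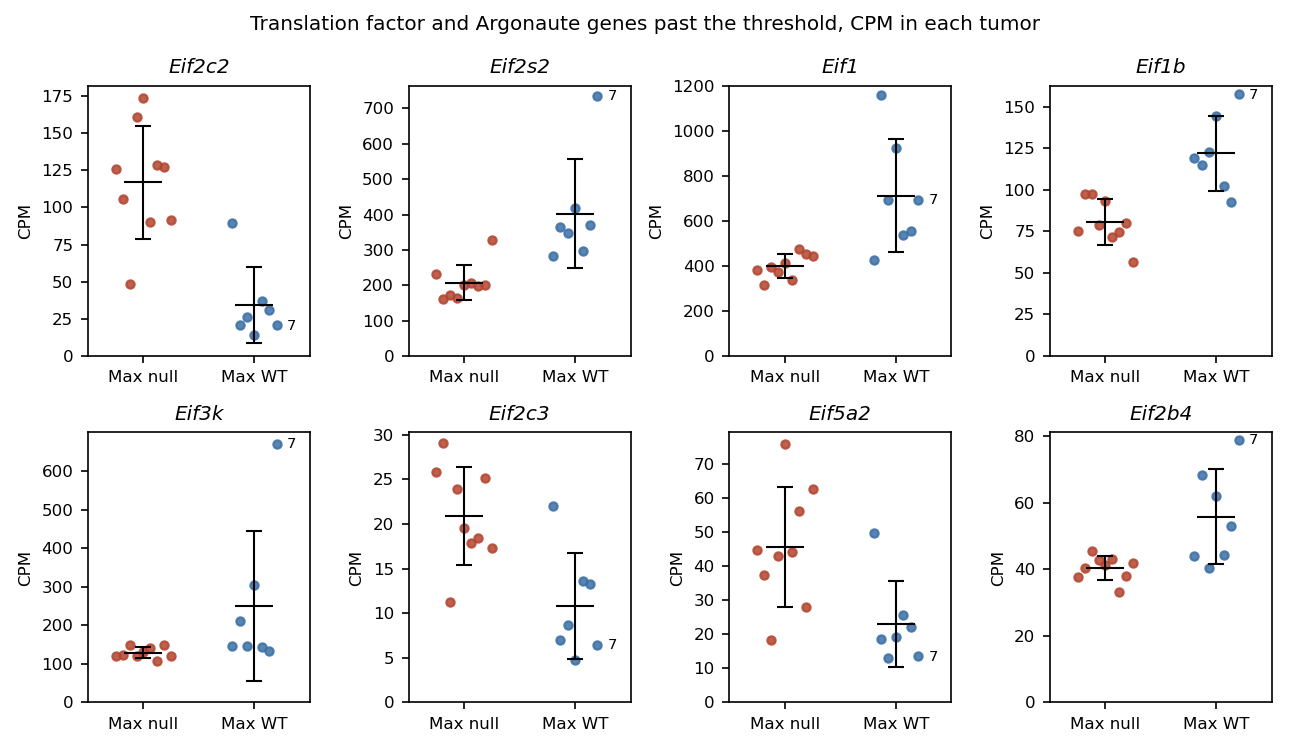
CPM in every tumor, Max null at the left and Max wild-type at the right of each panel, for the 8 factors that passed the test, with the mean and SD as bars and wild-type tumor 7 numbered. Eif2s2, Eif1, Eif1b, Eif3k and Eif2b4 sit lower in null tumors, Eif2c2, Eif2c3 and Eif5a2 higher, and the groups overlap in each panel.

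Of eIF2, the beta subunit fell. Eif2s2, which encodes it, had 232, 162, 173, 163, 201, 207, 198, 202 and 327 CPM in null tumors, against 284, 364, 347, 420, 298, 372 and 735 CPM in wild-type tumors. All null tumors but tumor 9 were below every wild-type tumor. Means were 207 ± 50.2 CPM in null tumors and 403 ± 153 CPM in wild-type tumors, a log2 difference of -0.96 ± 0.20 (edgeR adjusted p = 0.00748). It was -0.75 (adjusted p = 0.0101) without wild-type tumor 7 and -0.65 (adjusted p = 0.066) without wild-type tumors 2, 4 and 7. Eif2s2 shares 27.8% of its 50-base words with Gm9892.

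The alpha subunit gene Eif2s1, whose product is the target of the eIF2 kinases, had a range of 77.3 to 109 CPM with a median of 86.0 in null tumors, against 69.7 to 227 CPM with a median of 108 in wild-type tumors. Its log2 difference of -0.48 ± 0.18 did not pass (edgeR adjusted p = 0.0789). The gamma subunit, which holds GTP and the tRNA, comes from an X-linked and a Y-linked gene. Eif2s3x had 195 to 449 CPM (median 336) in null tumors and 214 to 448 CPM (median 291) in wild-type tumors, a difference of 0.06 ± 0.20 (adjusted p = 0.861). Eif2s3y was not tested in the fit of all 16 tumors: it had 84.3, 78.1 and 48.8 CPM in null tumors 4, 6 and 7 and 162 CPM in wild-type tumor 2, and at most 0.84 CPM in each other tumor. Eif2s3x in those 4 tumors was at 216, 195, 254 and 214 CPM, within the lower part of its range. Summed eIF2 was 528 to 825 CPM in null tumors and 706 to 1204 CPM in wild-type tumors, with overlap.

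All 5 eIF2B subunit genes had a difference below 0, and Eif2b4 passed. Eif2b4, the delta subunit, had 33.3 CPM at the lowest, 41.5 at the median and 45.5 at the highest null tumor, against 40.5, 53.1 and 78.9 CPM in wild-type tumors. All 9 null tumors lay below the wild-type median and 4 lay below every wild-type tumor. The log2 difference was -0.46 ± 0.15 (edgeR adjusted p = 0.0437) and -0.37 (adjusted p = 0.0856) without wild-type tumor 7. It passed in 4 of the 16 fits that leave out 1 tumor. Eif2b2, the beta subunit, differed by -0.64 ± 0.25 without passing (adjusted p = 0.0786), and Eif2b5, the catalytic epsilon subunit, had 44.0 to 92.1 CPM (median 68.4) in null tumors and 66.1 to 107 CPM (median 77.0) in wild-type tumors, with a difference of -0.23. Eif2b1 and Eif2b3 differed by -0.38 and -0.49. Eif2a and Eif2d, which can bring a tRNA to the ribosome without eIF2, had differences of -0.07 and -0.24.

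Eif3k was the one eIF3 subunit of 12 tested that passed. It is a small outer subunit that some organisms lack. It had 109 CPM at the lowest, 123 at the median and 150 at the highest null tumor, against 133, 146 and 669 CPM in wild-type tumors, where 669 was tumor 7. Of the 9 null tumors, 6 lay below every wild-type tumor. The log2 difference was -0.96 ± 0.29 (edgeR adjusted p = 0.0349), -0.49 (adjusted p = 0.0718) without wild-type tumor 7, and -0.14 without wild-type tumors 2, 4 and 7. Eif3k shares none of its 50-base words with another gene.

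Of the 12 eIF3 subunits, 11 had a difference below 0, with a median of -0.38. The exception was Eif3a, the largest subunit, which had 358 CPM at the lowest, 444 at the median and 602 at the highest null tumor, against 192, 284 and 587 CPM in wild-type tumors. Its log2 difference of 0.50 ± 0.22 did not pass (edgeR adjusted p = 0.116), while limma-voom passed it at 0.575 (adjusted p = 0.0327). Eif3i had 122 to 217 CPM (median 138) in null tumors and 75.6 to 1193 CPM (median 174) in wild-type tumors, a difference of -1.06 ± 0.43 (adjusted p = 0.0969), which was -0.14 without wild-type tumor 7. Eif3h and Eif3e, both of the core octamer, differed by -0.52 and -0.43. The remaining 7 (Eif3b, Eif3c, Eif3d, Eif3f, Eif3g, Eif3l and Eif3m) lay between -0.42 and -0.13. Without wild-type tumor 7, 0 of 12 passed in edgeR, 1 had an unadjusted p under 0.05, and the median was -0.08. It was 0.03 without wild-type tumors 2, 4 and 7.

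Each subunit is present once in the complex, and their levels per kilobase of longest transcript were compared within each tumor. The highest subunit was 2.82 to 4.44 times the lowest in null tumors. It was 2.90 to 4.86 times the lowest in 5 of the wild-type tumors, 11.1 times in wild-type tumor 4 and 28.4 times in wild-type tumor 7. In wild-type tumor 7 the highest was Eif3i at 1062 CPM per kb and the lowest Eif3a at 37.4 CPM per kb. Eif3j was listed at 0 in all 16 tumors; its gene shares 54.8% of its 50-base words with other genes, 39.4% with Eif3j2, and no level is given.

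**Figure D3:**
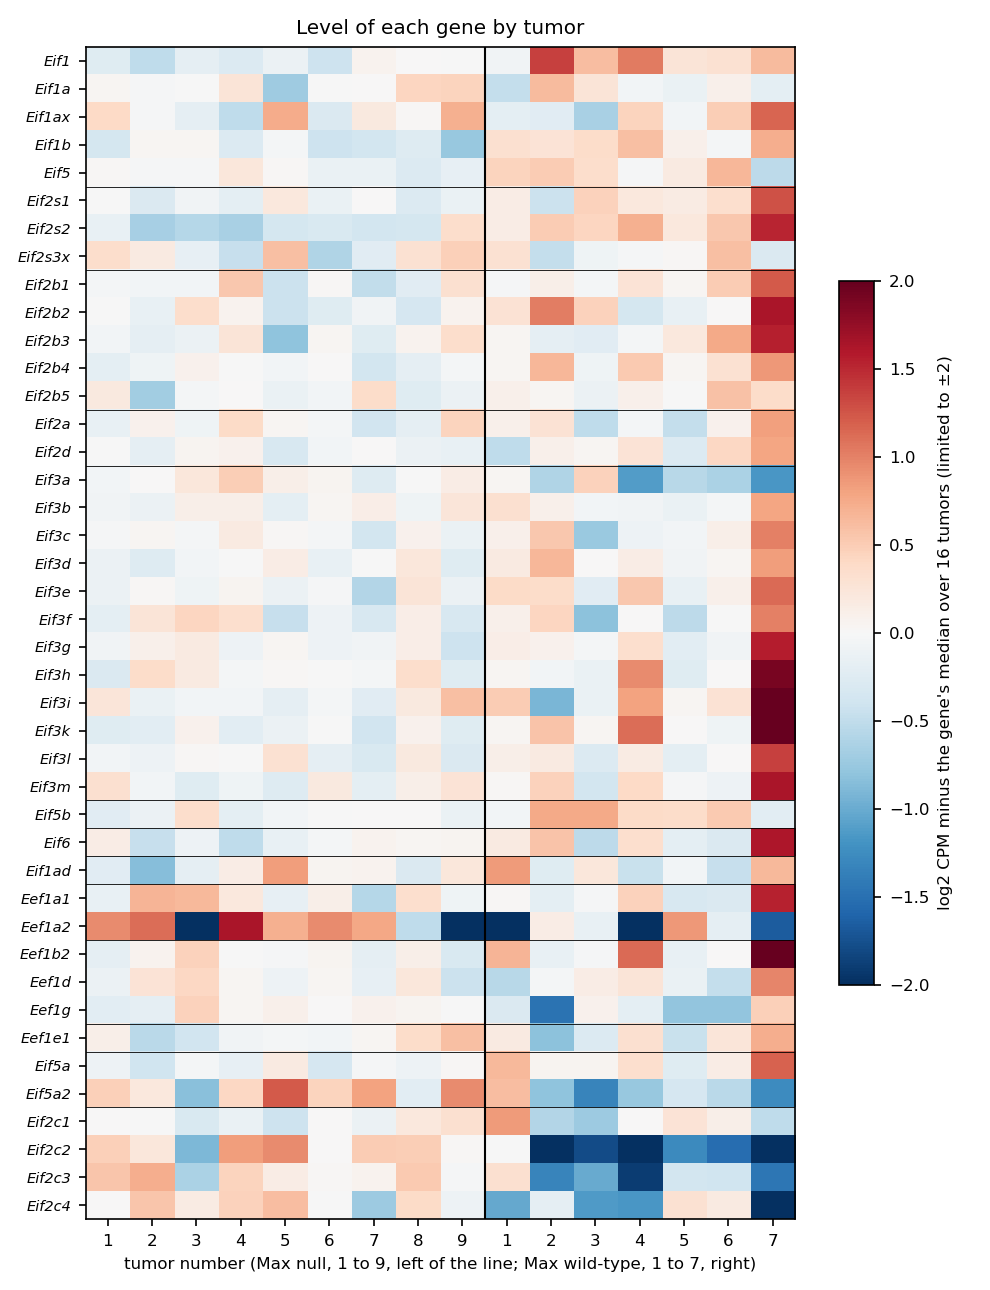
Each tested factor by tumor, as log2 CPM over the median of the 16 tumors, Max null columns left of Max wild-type columns. Wild-type tumor 7 is the highest of all 16 for 28 of the 42 factors and the lowest for 3.

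Eif5b, the GTPase that joins the subunits, had 143 CPM at the lowest, 162 at the median and 214 at the highest null tumor, against 145, 217 and 284 CPM in wild-type tumors. Its log2 difference was -0.43 ± 0.15 (edgeR adjusted p = 0.0576). It passed without wild-type tumor 7, at -0.52 (adjusted p = 0.0253), and with DESeq2 and limma-voom. Eif5b overlaps Rev1 on the opposite strand and shares 18.2% of its 50-base words with it. Eif6, which keeps the large subunit from joining too early, had 83.8 to 132 CPM (median 117) in null tumors and 83.0 to 367 CPM (median 136) in wild-type tumors. Its difference was -0.51 ± 0.25 (adjusted p = 0.166) and -0.16 without wild-type tumor 7.

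The 2 genes for eIF5A had differences of opposite sign. Eif5a2, the less widely expressed paralog, had 18.2 CPM at the lowest, 44.2 at the median and 75.9 at the highest null tumor, against 13.0, 19.1 and 49.8 CPM in wild-type tumors. Of the 9 null tumors, 8 lay above the wild-type median, and wild-type tumor 1 was the one at 49.8. The log2 difference was 0.98 ± 0.31 (edgeR adjusted p = 0.0392), 0.88 (adjusted p = 0.0806) without wild-type tumor 7, and it passed in 4 of the 16 fits that leave out 1 tumor. Eif5a had 324 to 482 CPM (median 395) in null tumors and 361 to 963 CPM (median 471) in wild-type tumors, a difference of -0.48 ± 0.18 (adjusted p = 0.0815). Per kilobase, Eif5a2 made up 1.24% to 4.31% of the pair (median 3.18%) in null tumors and 0.40% to 2.10% (median 1.19%) in wild-type tumors. All null tumors but tumors 3 and 8 had a higher share than every wild-type tumor.

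**Figure D4:**
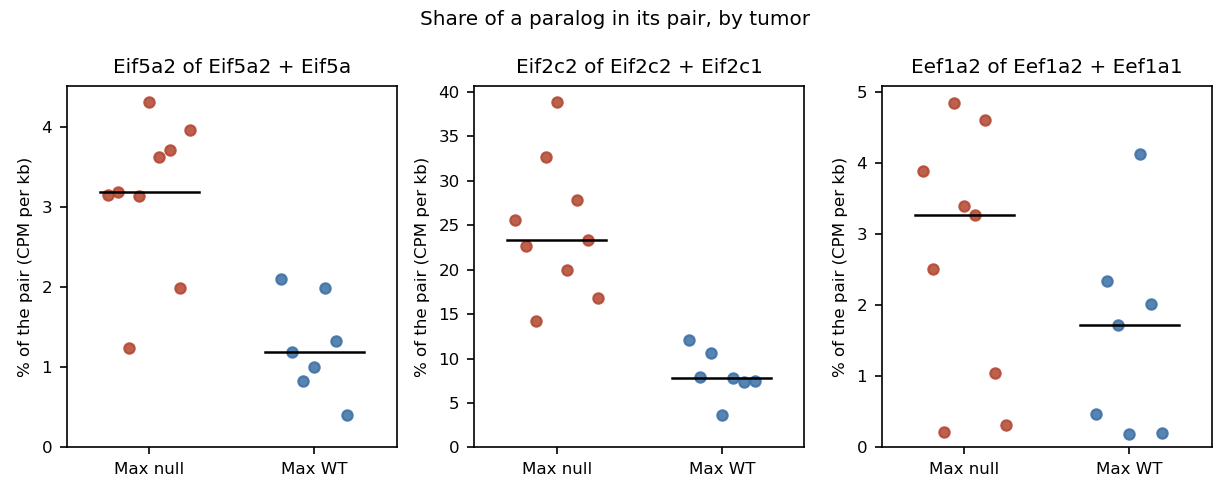
Share of each paralog in its pair, in percent of summed CPM per kb, in every tumor, Max null left of Max wild-type, with the median as a line, for Eif5a2, Eif2c2 and Eef1a2. The shares of Eif2c2, a pair not among those planned, do not overlap between the groups, and the others shown do.

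None of the elongation factor genes of eEF1 passed. Eef1a1 had by far the most reads per kilobase of the 44, at a mean of 3539 CPM per kb in null tumors and 3953 CPM per kb in wild-type tumors. It ran from 3818 to 9105 CPM (median 6147) in null tumors and from 4550 to 16387 CPM (median 5583) in wild-type tumors, a difference of -0.16 ± 0.30 (edgeR adjusted p = 0.751), and shares 60.6% of its 50-base words with 21 other genes. Eef1a2, the paralog of muscle and neurons, ran from 19.5 to 387 CPM (median 214) in null tumors and from 17.2 to 227 CPM (median 111) in wild-type tumors, a difference of 0.96 ± 0.59 (adjusted p = 0.273). Both groups thus spread widely in Eef1a2, with low tumors in each. Eef1b2, an exchange subunit, had 271 to 460 CPM (median 333) in null tumors and 301 to 1746 CPM (median 338) in wild-type tumors, a difference of -0.85 ± 0.32 (adjusted p = 0.0773) that was -0.33 without wild-type tumor 7. Eef1d, the other exchange subunit, differed by -0.07, and Eef1g, the scaffold subunit, by 0.36, where 64.3% of its words are shared. Eef1e1, which belongs to the aminoacyl-tRNA synthetase complex and not to eEF1, differed by -0.02. At an unadjusted p under 0.05, 1 of these 6 passed in edgeR, and DESeq2 passed 0 and limma-voom 1, which was Eef1g.

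Eif2c2 had the largest difference of the 42. It encodes the Argonaute Ago2, the one of the 4 mouse Argonautes best known for cutting its target RNA. It had 126, 106, 48.6, 161, 174, 90.5, 128, 127 and 91.3 CPM in null tumors, against 89.7, 20.8, 26.1, 13.9, 37.1, 31.2 and 20.5 CPM in wild-type tumors. All null tumors but tumor 3 lay above every wild-type tumor, and tumor 3 lay below wild-type tumor 1 only. Means were 117 ± 38.1 CPM in null tumors and 34.2 ± 25.6 CPM in wild-type tumors, a log2 difference of 1.77 ± 0.35 (edgeR adjusted p = 0.00558). It passed in each of the 16 fits that leave out 1 tumor and was 1.34 (adjusted p = 0.0747) without wild-type tumors 2, 4 and 7.

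Eif2c3 (Ago3) had 11.3 CPM at the lowest, 19.6 at the median and 29.1 at the highest null tumor, against 4.71, 8.73 and 22.0 CPM in wild-type tumors. All 9 null tumors lay above the wild-type median. The difference was 0.95 ± 0.30 (edgeR adjusted p = 0.0391) and 0.85 (adjusted p = 0.0784) without wild-type tumor 7. Eif2c4 (Ago4) differed by 0.71 without passing (adjusted p = 0.111). Eif2c1 (Ago1) had 143 to 237 CPM (median 189) in null tumors and 115 to 341 CPM (median 191) in wild-type tumors, a difference of -0.04 ± 0.20 (adjusted p = 0.9). Per kilobase, Eif2c2 took 14.2% to 38.9% (median 23.3%) of the sum of Eif2c1 and Eif2c2 in null tumors and 3.69% to 12.1% (median 7.84%) in wild-type tumors, without overlap. That pair was not among those planned, and no background over other gene pairs was computed. Eif1ax took 27.5% to 63.6% of its pair with Eif1a in null tumors and 25.6% to 62.3% in wild-type tumors. Eif1b took 13.9% to 28.3% of its pair with Eif1 in null tumors and 11.2% to 26.3% in wild-type tumors.

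Wild-type tumor 7 stood apart in a way that went with transcript length. For the 16 factors with a longest transcript under 2 kb its CPM was a median of 2.85 times the median of the other wild-type tumors, for the 17 of 2 to 4 kb it was 1.74 times, and for the 9 of 4 kb or more it was 0.65 times. The log2 difference between the groups had medians of -0.49, -0.14 and 0.50 in the same 3 classes. With a trend on length and GC content removed from every library they were -0.23, -0.18 and 0.36, so the order stayed with a smaller span. Eif2c2, Eif2c3 and Eif5a2, which were higher in null tumors, are all in the longest class. Across all genes, the correlation of a library's deviation with transcript length was -0.09 to 0.23 in null tumors and -0.53 to 0.17 in wild-type tumors, lowest in wild-type tumors 7 and 4. Genes are not independent replicates, and the part of library quality in these results was not tested. With the trend removed, Eif2s2 (-0.73, adjusted p = 0.0183) and Eif2c2 (1.37, adjusted p = 0.00382) passed by edgeR, as did Eif5a2 and Eif5b, while Eif1 (-0.55, adjusted p = 0.0653) and Eif1b (-0.30, adjusted p = 0.2) did not.

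**Figure D5:**
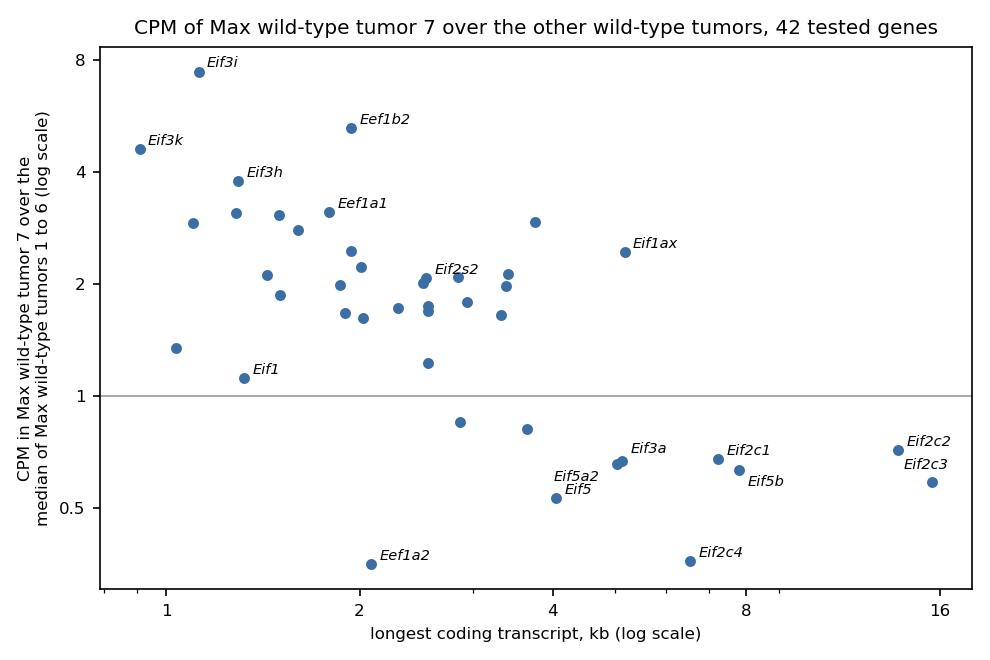
CPM in Max wild-type tumor 7 over the median of Max wild-type tumors 1 to 6, against the length of the longest coding transcript, both on log scales, for the 42 factors tested. The ratio is a median of 2.85 under 2 kb and 0.65 at 4 kb or more.

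The neighbouring steps of translation were set beside these factors. Among 14 cap-binding and 4E-binding genes 1 rose and 2 fell (21.4%, against 16% of all genes), with a median of -0.24. Without wild-type tumor 7, 1 of the 14 passed (7.14%, against 10.4% of all genes), which was Eif4ebp3, and the median was -0.0218. Eif4g1, the scaffold of the cap complex, had 424 to 585 CPM (median 462) in null tumors and 141 to 457 CPM (median 263) in wild-type tumors (log2 difference 0.76 ± 0.23, edgeR adjusted p = 0.0357). Eif4g1 did not pass without wild-type tumor 7, and without wild-type tumors 2, 4 and 7 its difference was 0.36 (adjusted p = 0.216). Eif4ebp3, a repressor of the cap-binding protein, had 9.13 to 15.6 CPM in null tumors and 27.6 to 55.4 CPM in wild-type tumors, ranges that do not overlap (-1.47 ± 0.18, adjusted p = 0.000843). Its paralog Eif4ebp2 went the other way, with 32.5 to 73.8 CPM in null tumors and 7.18 to 74.4 CPM in wild-type tumors. It did not pass in edgeR (0.87, adjusted p = 0.117) and passed as higher in limma-voom. Eif4ebp1 differed by -0.40 (edgeR adjusted p = 0.413). Eif4a1, the helicase, had 422 to 804 CPM in null tumors and 606 to 1324 CPM in wild-type tumors (-0.56, adjusted p = 0.0463), and did not pass without wild-type tumor 7.

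Among 9 genes of the eIF2 kinases and the stress response they set off, 1 rose and 2 fell (33.3%, against 16% of all genes), with a median of -0.00172. Atf4, the transcription factor translated when eIF2 is phosphorylated, had 163 to 242 CPM in null tumors and 251 to 584 CPM in wild-type tumors, without overlap (-0.72 ± 0.18, edgeR adjusted p = 0.0163). Ddit3, a target of that pathway, had 11.9 to 29.2 CPM in null tumors and 18.5 to 80.4 CPM in wild-type tumors (-1.30 ± 0.27, adjusted p = 0.00672). Eif2ak3, the kinase of the endoplasmic reticulum, had 43.1 to 96.5 CPM in null tumors and 25.5 to 43.5 CPM in wild-type tumors, where 8 of 9 null tumors were above every wild-type tumor (0.60 ± 0.18, adjusted p = 0.0305). Eif2ak3 did not pass without wild-type tumor 7 or in limma-voom. Without wild-type tumors 2, 4 and 7 Atf4 alone of the 9 passed (-0.87, adjusted p = 0.0444), and Ddit3 was at -1.10 (adjusted p = 0.0617).

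Of 8 termination and recycling genes 1 rose (12.5%, against 16% of all genes). It was Gspt2, a release factor GTPase, with 16.6 to 28.9 CPM in null tumors and 1.48 to 18.5 CPM in wild-type tumors (1.23 ± 0.36, edgeR adjusted p = 0.029). Without wild-type tumors 2, 4 and 7 its difference was 0.77 (adjusted p = 0.0782), and 0 of the 8 passed in edgeR, with 2 at an unadjusted p under 0.05. In edgeR 0 of 9 mitochondrial factors passed, with 2 at an unadjusted p under 0.05 and 1, Gfm1, passing in each of DESeq2 and limma-voom. Tufm, with the most reads of them, differed by 0.09. Of the 2 enzymes that make hypusine on eIF5A, the 3 other elongation genes and the 2 scaffold genes of the synthetase complex, 0 passed in edgeR, DESeq2 or limma-voom. Of these, 1 gene, Aimp1, had an unadjusted p under 0.05, with a difference of -0.50 (adjusted p = 0.108). Eef2, the translocase, had 1602 to 3161 CPM in null tumors and 1554 to 4206 CPM in wild-type tumors and differed by 0.13, and Dohh by -0.06.

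Of 76 cytosolic ribosomal protein genes tested 14 fell (18.4%, against 16% of all genes called and 8.64% called lower), with a median log2 difference of -0.83. At an unadjusted p under 0.05 in edgeR there were 50, where the share of all genes is not given here. DESeq2 passed 26 (33.8%), in a fit that passed 3612 genes in all. Limma-voom, with a quality weight for each library, passed 2 (2.63%), in a fit that passed 2440 genes in all. By smallest p in edgeR they were led by Rpl24 (-1.46, adjusted p = 0.0179), Rps25 (-1.28, adjusted p = 0.0192) and Rps27 (-1.29, adjusted p = 0.0221). Rps27 had few reads, at 0.58 to 2.60 CPM in null tumors and 1.61 to 8.09 CPM in wild-type tumors. Rpl24 had 313 to 427 CPM in null tumors and 401 to 3376 CPM in wild-type tumors. Without wild-type tumor 7, 2 fell (2.63%, against 10.4% of all genes called), and the median was -0.22. Without wild-type tumors 2, 4 and 7, 0 of 77 passed in edgeR, 11 had an unadjusted p under 0.05, and the median was 0.05. Their summed level was 34720 to 53726 CPM in null tumors and 33985 to 218590 CPM in wild-type tumors, where the highest was tumor 7.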

How the data were processed

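RNA was sequenced from 16 mouse lung tumors. The deposited files hold whole-number read counts per gene symbol, which the authors made with bcl2fastq 1.8.4, TopHat2 2.0.12 and HTSeq 0.6.1 on mm9, per the submitters' processing notes. Which annotation and strand setting they used is not given in the sources used here. Summary rows that name no gene were left out. They took 29.2% to 32.9% of all entries counted in null tumors and 32.8% to 45.6% in wild-type tumors.

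Groups came from the labels. The main test was edgeR 4.0.16 (R 4.3.3; quasi-likelihood F test, TMM scaling, filterByExpr, no covariate) on all 14825 genes that passed the filter, with Benjamini-Hochberg adjustment and a threshold of 0.05. CPM uses TMM-scaled library sizes. A standard error is the log2 difference over the root of F. DESeq2 1.42.0, limma 3.58.1 (voom), other scalings and filters, covariates, a length and GC trend and leaving out tumors were alternatives. Every limma-voom result here is from a fit that gave each library a quality weight, so libraries did not count equally in it. Transcript lengths and 50-base words shared between genes came from GENCODE M21, and promoter windows from RefSeq GRCm38.p6. No 2 libraries were near copies.

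Members, complexes and lists were chosen with earlier results of these data known. CPM in every tumor, or the lowest, median and highest per group, is given for every factor that passed. It is also given for the gene with most reads and the smallest p in each complex, and for Eif2s3x. Eif1ad, Eif2a, Eif2d and Eef1e1 are exceptions and are given by their difference only. Eif2s3y is given for the tumors in which it was high, with an upper limit for the rest. In each other list up to 3 passing genes by smallest p are named, or the gene with most reads. Other genes named were chosen after their values were seen. A further neuroendocrine marker is not reported here.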

Additional observations from a re-analysis of the deposited data

Results flagged for a closer look

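In each group of tumors, the CPM of each tested factor was searched for a highest or lowest tumor set apart from the others by Dixon's criterion. This was done for 84 groups of values, of which 23 had such a tumor. Chance flags about 1 in 20.

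Wild-type tumor 7 was the highest in 15. Among eIF3 subunits it was at 481 CPM for Eif3b, 363 for Eif3g, 1065 for Eif3h, 1193 for Eif3i, 669 for Eif3k, 435 for Eif3l and 510 for Eif3m. Among the eIF2 and eIF2B genes it was at 227 CPM for Eif2s1, 735 for Eif2s2, 141 for Eif2b1 and 101 for Eif2b3. In the elongation factors it was at 16387 CPM for Eef1a1, 1746 for Eef1b2 and 245 for Eef1d, and Eif6 was at 367 CPM.

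Null tumor 3 was highest among null tumors for Eef1b2 (460 CPM), Eef1g (489 CPM) and Eif5b (214 CPM). Null tumor 5 was highest for Eif1ad (95.4 CPM), and null tumor 9 for Eif2s2 (327 CPM) and Eif3i (217 CPM). Wild-type tumor 1 was highest among wild-type tumors for Eif2c2 (89.7 CPM) and Eif5a2 (49.8 CPM).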

How the results depend on the processing

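Across all genes, 2378 passed in edgeR, against 3612 in DESeq2, 1549 with a length and GC trend removed, 318 with the tumor number as a replicate block, 256 without wild-type tumors 2, 4 and 7, and 10 with the share of multiply aligned reads as a covariate. Leaving out 1 tumor at a time gave 1471 to 3033. Of the factors, 3 passed as higher and 5 as lower. Leaving out 1 tumor gave 1 to 4 higher and 3 to 6 lower. The block gave 1 higher (Eif2c2) and 1 lower (Eif2s2), and the length and GC trend gave 2 higher and 2 lower. The multiply aligned share gave 0 higher and 0 lower in edgeR (5 at an unadjusted p under 0.05), as did leaving out wild-type tumors 2, 4 and 7 (0 and 0, with 9). Since the multiply aligned share does not overlap between groups, that fit cannot separate it from genotype. Under it the adjusted p of Eif2c2 was 0.287 and that of Eif2s2 0.486, the highest over their 27 alternatives, with 2.83e-05 and 0.000309 the lowest.

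Under that covariate the median over factors turned to 0.15 and over eIF3 to 0.31, and the log2 differences turned to 0.31 in Eif3k, 0.63 in Eef1a1, -0.0515 in Eef1a2, 0.41 in Eef1b2, -0.0607 in Eif3a, 0.66 in Eif3i, 0.43 in Eif6, 0.59 in Eif3h and 0.10 in Eif3e. Limma-voom turned Eef1a1 to 0.11 and Eif2c1 to 0.0241, and the length and GC trend turned Eef1a1 to 0.16 and Eif3e to 0.0056. Without wild-type tumors 2, 4 and 7 the eIF3 median was 0.0267, with Eef1a1 at 0.31, Eif6 at 0.0888 and Eif3h at 0.13. Leaving out 1 tumor put Eif2c1 between -0.14 and 0.16 and Eef1a1 between -0.24 and 0.19. The causes were not tested.

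Tumor numbers occur in both groups, but same-numbered tumors had correlations of -0.17 to 0.24 in their deviations over 7 pairs, with 2 over 0.1, and 1 of the 7 correlated best with its own number. The numbers were therefore not taken to pair tumors.

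Counting error is relatively largest for the factors with few reads, such as Eif2c3, Eif2c4 and Eif5a2 in wild-type tumors. The standard errors of their log2 differences were 0.297, 0.305 and 0.307, against 0.302 for Eef1a1. Counting error was not separated from the spread between tumors, and its part in the results was not tested.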
